A study of Mus musculus with 32 samples.

Results

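The genes described here are 32 genes of cholesterol synthesis, uptake and efflux, chosen by name from the 54146 gene identifiers of a mouse brain RNA count table. They comprise 18 synthesis enzymes, 5 genes that control the sterol-regulated transcription factors (SREBPs) and 9 genes of sterol transport, efflux and turnover. All 32 had enough counts to be tested in every comparison. RNA was measured in 1 hippocampal or striatal hemisphere of male C57BL/6J mice aged 12 weeks. The 8 groups were hippocampus and striatum, each after HDACi with contextual fear conditioning (CFC), vehicle with CFC, HDACi with context and vehicle with context. Each group had 4 mice, with 1 library per mouse within a group. HDACi was CI-994, which inhibits histone deacetylases of class I, injected intraperitoneally at 30 mg/kg, and vehicle was its mixture of DMSO, Kolliphor and saline, so all mice were injected. CFC began 1 hour after injection and consisted of 2 foot shocks of 0.2 mA in a chamber, whereas context mice stayed in the chamber for as long but received no shock. Tissue was taken 1 hour after behaviour. Mice of a cage all had the same behaviour, so cage and conditioning cannot be told apart. Whether hippocampus and striatum libraries of equal number came from 1 mouse is not stated.

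Brain cholesterol is made within the brain, because lipoproteins of the blood do not cross the blood-brain barrier. Acetyl-CoA is turned into mevalonate, squalene and lanosterol, and a further set of enzymes converts lanosterol into cholesterol. When membrane sterol is low, the escort protein encoded by Scap carries the SREBPs to the Golgi for activation, and they raise the transcription of most of these enzymes. The INSIG proteins hold that complex back when sterol is plentiful. When oxysterols accumulate, the liver X receptors (encoded by Nr1h2 and Nr1h3) raise genes of sterol export, among them Abca1, Abcg1 and Apoe. They also raise Mylip and Srebf1. Astrocytes supply much of the cholesterol of adult neurons through APOE particles, and neurons dispose of an excess through the hydroxylase CYP46A1.

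Hippocampus libraries held 26026024 to 36670767 counts each, and striatum libraries 27418127 to 33635025. Levels below are CPM, the count of a gene scaled to a common library total, without the TMM scaling of the fits, so a small fold change can differ in sign from the CPM means. Differences between groups are log2 fold changes ± SE from edgeR with TMM scaling, and a gene is called changed at an adjusted p under 0.05 over all genes tested (quasi-likelihood F test, Benjamini-Hochberg adjustment). The region labels matched their markers: 10 medium spiny neuron markers summed to 130.2 to 178.5 CPM in hippocampus libraries and 4712 to 7686 CPM in striatum libraries. Libraries that stood apart numbered 2 in each region. In replicates 2 and 4 of hippocampus HDACi CFC, 10 choroid plexus markers summed to 6260 and 6065 CPM, against 37.06 to 441.4 CPM in the other 14 hippocampus libraries. In replicate 2 of striatum HDACi CFC and replicate 3 of striatum vehicle CFC, the medium spiny neuron markers summed to 4712 and 5072 CPM, against 6046 to 7686 CPM in the other 14. In addition, replicates 1 and 2 differed from replicates 3 and 4. For 7 members with GC contents of 52.7 to 60.6% (Mvk, Scap, Srebf1, Srebf2, Abcg1, Apoe and Nr1h2) both of replicates 1 and 2 lay above both of replicates 3 and 4 in at least 7 of 8 groups. For 7 others with GC contents of 43.1 to 48.6% (Hmgcs1, Sqle, Cyp51, Msmo1, Nsdhl, Insig2 and Stard4) both lay below in at least 5 of 8 groups. These cutoffs differ. Both lay above in 6 groups for Mvd and Tm7sf2 and in 5 for Pmvk and Cyp46a1. Idi1 and Sc5d, with GC contents of 41.9% and 42.9%, had both below in only 4 and 3 groups. Within the GC ranges above, both lay above in only 4 groups for Dhcr7 and Nr1h3. They lay below in only 3 groups for Hsd17b7, Abca1 and Soat1, and in 2 for Insig1. This pattern was not counted over all genes. Being bulk tissue, the libraries cannot tell fewer cells of a type from less RNA per cell.

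The control regions of the members illustrate 1 feature that most synthesis genes shared. RefSeq promoter windows (GRCm38.p6, 250 bases before to 50 after a transcript start) were found for 27 members. The NF-Y box, the letters CCAAT on either strand, is known to act beside the sterol regulatory element in promoters of SREBP targets. It was present in 14 of 15 synthesis genes with a window (93.33%) and in 7 of 12 other members (58.33%), against 41.06% of the windowed genes of the mouse genome. A gene with several windows was counted when any of them held the motif. The element itself, searched as TCACNCCAC on either strand, was present in 1 of the 27 members, Hmgcs1, against 1.44% of all genes. The absence of these letters says nothing of binding by the factors. The promoters below belong to some of the genes on which the results below turn. Others are not shown, among them Lss and Abca1. The window of Abca1, which rose with the drug in both regions, held 0 NF-Y boxes. Those of Mvk and Nsdhl, which were not called with the drug, held 5 and 4. Whether the boxes go with the drug response was not tested. Hsd17b7 and Insig1 fell with the drug in both regions, Hmgcs1 carries the only sterol element found and was not called, Acat2 is the only synthesis gene with no NF-Y box in a window, and Mylip rose in hippocampus. Capitals mark the sterol element (TCACCCCAC) and the NF-Y box, which reads ATTGG where it lies on the opposite strand. The windows are chr1:169969156-169969455 on the minus strand for Hsd17b7, chr5:28071162-28071461 on the plus strand for Insig1, chr13:119690101-119690400 on the plus strand for Hmgcs1, chr17:12960676-12960975 on the minus strand for Acat2 and chr13:45389492-45389791 on the plus strand for Mylip.
Hsd17b7: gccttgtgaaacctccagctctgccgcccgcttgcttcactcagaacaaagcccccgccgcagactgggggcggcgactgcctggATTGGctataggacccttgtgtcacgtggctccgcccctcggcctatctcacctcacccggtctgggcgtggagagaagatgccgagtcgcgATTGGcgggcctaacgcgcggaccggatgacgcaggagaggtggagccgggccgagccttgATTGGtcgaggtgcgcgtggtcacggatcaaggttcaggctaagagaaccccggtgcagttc
Insig1: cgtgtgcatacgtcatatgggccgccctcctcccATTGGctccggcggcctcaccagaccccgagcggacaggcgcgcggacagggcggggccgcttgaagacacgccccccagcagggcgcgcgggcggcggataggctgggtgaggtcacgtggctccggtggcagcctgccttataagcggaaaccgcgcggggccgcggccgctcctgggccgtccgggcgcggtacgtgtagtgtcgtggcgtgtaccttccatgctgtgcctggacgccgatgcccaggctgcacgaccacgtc
Hmgcs1: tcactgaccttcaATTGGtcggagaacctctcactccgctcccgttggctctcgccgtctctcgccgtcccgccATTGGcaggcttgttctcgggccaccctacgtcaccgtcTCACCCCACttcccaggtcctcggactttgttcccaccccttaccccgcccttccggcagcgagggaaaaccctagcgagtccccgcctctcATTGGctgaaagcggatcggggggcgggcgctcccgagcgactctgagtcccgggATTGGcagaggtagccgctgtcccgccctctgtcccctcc
Acat2: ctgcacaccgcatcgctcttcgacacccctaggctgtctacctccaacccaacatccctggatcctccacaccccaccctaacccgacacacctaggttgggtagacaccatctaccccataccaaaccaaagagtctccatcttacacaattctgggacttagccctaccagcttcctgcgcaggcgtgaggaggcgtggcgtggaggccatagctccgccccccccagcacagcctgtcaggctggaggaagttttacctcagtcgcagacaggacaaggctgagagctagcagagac
Mylip: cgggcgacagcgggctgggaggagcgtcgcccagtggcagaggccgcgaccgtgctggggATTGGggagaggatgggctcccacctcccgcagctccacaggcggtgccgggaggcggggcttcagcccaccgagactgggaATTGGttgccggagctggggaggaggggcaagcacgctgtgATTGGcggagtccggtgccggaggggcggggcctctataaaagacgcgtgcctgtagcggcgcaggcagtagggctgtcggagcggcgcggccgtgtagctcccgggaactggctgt

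Without drug or shock, the members spanned a wide range of levels, compared here per kilobase of exon (RPKM, mean ± SD, n = 4 libraries per region). Apoe, which encodes the main apolipoprotein of the brain, was the highest member in both regions, at 204 ± 73.4 RPKM in hippocampus and 198 ± 50.9 RPKM in striatum. Hmgcs1, the cytosolic synthase of HMG-CoA, averaged 50.7 ± 6.93 RPKM in hippocampus and 38.2 ± 6.11 RPKM in striatum. Cyp46a1 averaged 24.1 ± 3.98 RPKM in hippocampus and 59.5 ± 9.89 RPKM in striatum. These genes held the top 3 ranks, and Hmgcs1 and Cyp46a1 exchanged places between the regions. Srebf2, which encodes the SREBP that drives cholesterol synthesis, averaged 16.8 ± 3.09 RPKM in hippocampus and 21.1 ± 3.21 RPKM in striatum, against 3.55 ± 1.08 and 4.93 ± 1.22 RPKM in the same order for Srebf1, whose main products act on fatty acid synthesis. Of the liver X receptors, Nr1h2 averaged 3.67 ± 1.08 RPKM in hippocampus and 5.26 ± 1.53 RPKM in striatum. Nr1h3 was near the bottom, with 0.855 ± 0.198 RPKM in hippocampus and 0.978 ± 0.130 RPKM in striatum. Fdps, the farnesyl diphosphate synthase, was last, at 0.276 ± 0.0410 RPKM in hippocampus and 0.213 ± 0.0795 RPKM in striatum. Its exons overlap the predicted gene Gm43738 on the same strand over 1124 of 4208 bases, where strand cannot tell the 2 genes apart. How the authors counted such reads is not given in the sources used here, so the low value of Fdps is uncertain. From rank 4 (Insig2 in hippocampus, Srebf2 in striatum) down to Mvk in rank 30, the ranges of neighbours in this order overlapped, except between Acat2 and Idi1 and between Lss and Tm7sf2 in hippocampus and between Idi1 and Ebp in striatum.

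**Figure D1:**
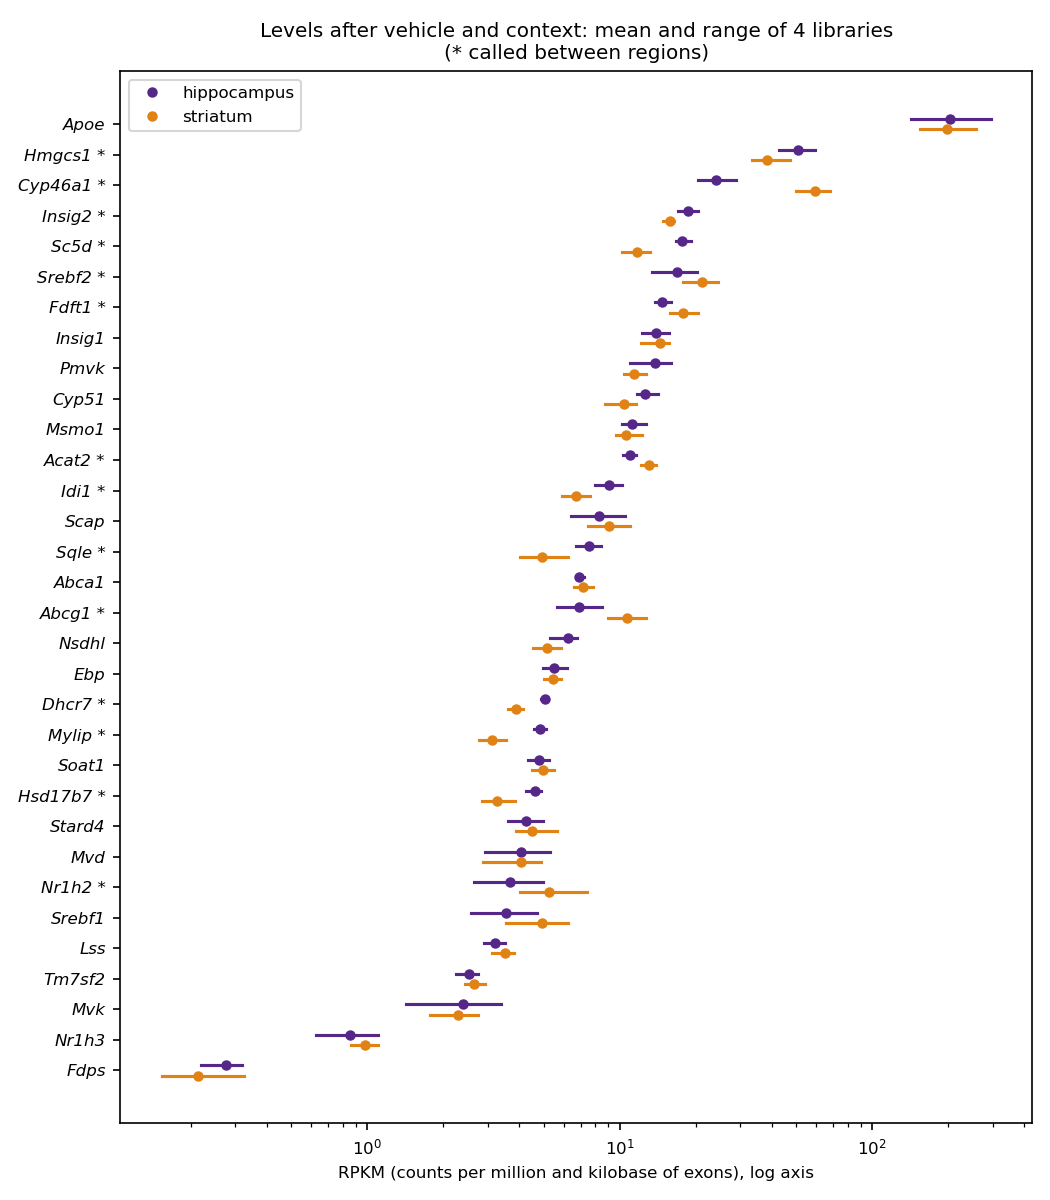
Levels of the 32 members after vehicle and context, in RPKM on a log axis, as the mean (point) and range (line) of 4 hippocampus and 4 striatum libraries, sorted by the hippocampus mean. Apoe lies far above the other members, Cyp46a1 is higher in striatum, and Sc5d and Mylip are higher in hippocampus. An asterisk marks members called between regions.

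Between the regions of vehicle context mice, 14 of 32 members were called, 8 higher and 6 lower in hippocampus, where 44.1% of the 19198 genes tested were called (24.2% higher and 19.9% lower). The share among the members, 43.75%, was near that among all genes. Cyp46a1 showed the largest difference. It was at 95.05, 84.7, 66.9 and 70.2 CPM in hippocampus, against 223, 224, 164 and 171 CPM in striatum, with no overlap, and its log2 difference was -1.33 ± 0.15 (adjusted p = 1.12e-08). Of the synthesis enzymes 6 were higher in hippocampus: Sqle, the squalene epoxidase, by 0.59 ± 0.15, the sterol desaturase Sc5d by 0.56 ± 0.10, Hsd17b7 by 0.46 ± 0.12, Idi1 by 0.40 ± 0.13, Hmgcs1 by 0.38 ± 0.13 and Dhcr7 by 0.36 ± 0.078. Both Acat2 (-0.28 ± 0.071) and the squalene synthase Fdft1 (-0.31 ± 0.090) were lower there. Mylip was higher in hippocampus by 0.60 ± 0.11 (adjusted p = 4.69e-05), and Insig2 by 0.21 ± 0.083 (adjusted p = 0.0433). The exporter Abcg1 was lower with a log2 change of -0.67 ± 0.14 (adjusted p = 0.000236), and so were Srebf2 (-0.36 ± 0.13, adjusted p = 0.0298) and Nr1h2 (-0.55 ± 0.22, adjusted p = 0.0452). The median over the 18 enzymes was 0.24, against 0.02 over all genes. The calls of Insig2, Srebf2 and Nr1h2 were the least stable of these, since leaving out single libraries ended them in 5, 4 and 4 of 8 cases. All 10 markers of mature oligodendrocytes were lower in hippocampus, with a median of -0.92, and their part in these differences was not tested. With the replicate number as a block 18 members were called, and Cyp51 (log2 difference 0.26, adjusted p = 0.0231), Nsdhl (0.24, adjusted p = 0.0193), Lss (-0.16, adjusted p = 0.0495) and Srebf1 (-0.52, adjusted p = 0.00177) were among them. The share of all genes called with that block is not given here.

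The drug changed a minority of the members, in both directions. Insig1, Lss and Hsd17b7 fell and Abca1 rose in all 4 comparisons, Mylip rose in hippocampus, and Acat2 fell in hippocampus and rose in striatum. In hippocampus after CFC 3 members rose and 7 fell, 31.25% of the 32, where 20.8% of 18261 genes were called (7.42% higher and 13.4% lower). In hippocampus after context 2 rose and 5 fell, against 19.8% of all genes (6.55% higher and 13.2% lower). In striatum after CFC 3 rose and 4 fell, against 24.2% of 18256 genes (9.57% higher and 14.6% lower). In striatum after context 3 rose and 6 fell, against 24.8% of all genes (10.3% higher and 14.5% lower). The shares of members called, 31.25%, 21.88%, 21.88% and 28.12%, were near those of all genes in 3 comparisons and above it in hippocampus after CFC. There, 6 members and 2358 genes were called without the choroid plexus libraries, against 10 members and 3797 genes with them. The median log2 fold change over the members was -0.08, -0.04, -0.08 and -0.11 in these comparisons, in that order, against 0.01, 0.01, 0.03 and 0.03 over all genes. Acat2, Lss, Hsd17b7, Insig1 and Abca1 were called in all 4 comparisons, Srebf1 in 3, Cyp51, Dhcr7 and Mylip in 2, and Idi1, Tm7sf2, Ebp and Stard4 in 1. How many of all genes were called in several of the 4 comparisons was not counted. Repeated calls are therefore not read as particular to the members. The 2 comparisons of a region share no libraries.

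The split between directions depended on scaling. With library size alone the calls among members, higher and lower, were 3 and 8 in hippocampus after CFC, 2 and 7 after context, 3 and 5 in striatum after CFC and 2 and 7 after context. With offsets for GC content and transcript length they were 6 and 8, 8 and 7, 5 and 5, and 6 and 7 in the same order. Among all genes, lower calls made up 64.31%, 66.89%, 60.42% and 58.49% with TMM, 76.38%, 81.04%, 76.53% and 78.63% with library size alone, and 51.11%, 48.86%, 52.33% and 49.17% with the offsets. With the offsets Hmgcs1, Insig2 and Sc5d were called higher in both hippocampus comparisons. The numbers of all genes called with these 2 alternative scalings are not given here.

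**Figure D2:**
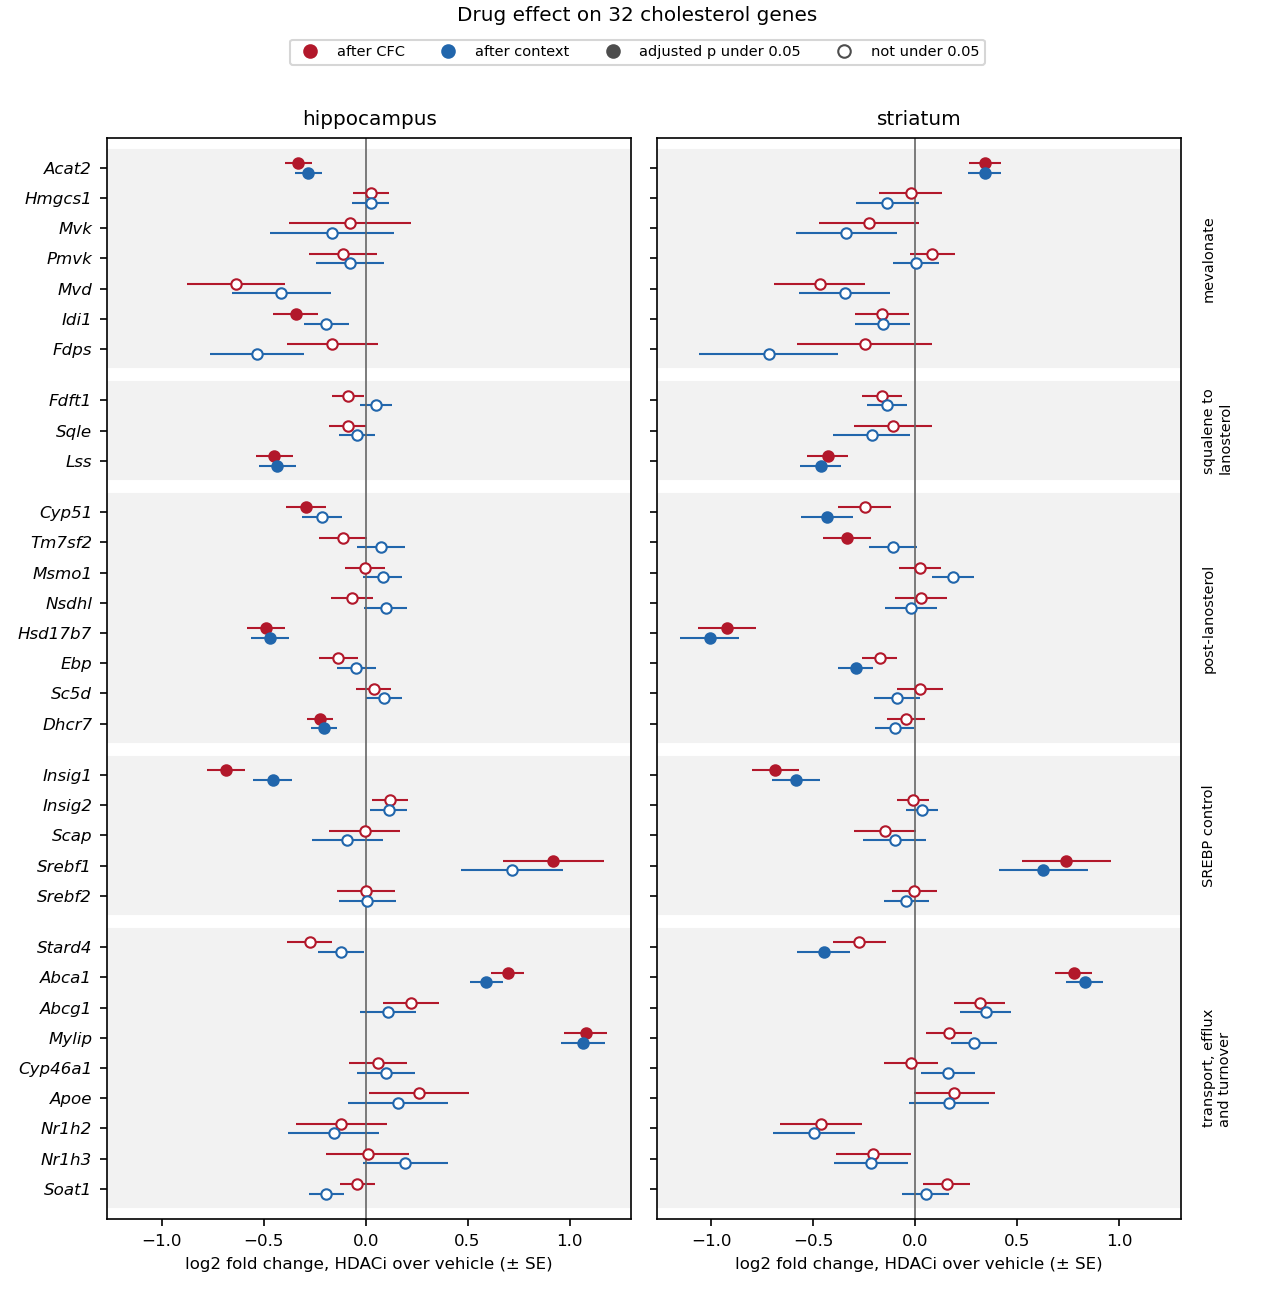
Log2 fold change of HDACi over vehicle (± SE) for each member, in hippocampus and striatum, after CFC and after context, grouped by role. Filled points are called changed. Insig1, Lss and Hsd17b7 lie left of 0 and Abca1 right of 0 in both regions, while Mylip is far right of 0 in hippocampus and near 0 in striatum, and Acat2 lies on opposite sides.

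At the head of the pathway, Acat2 moved in opposite directions in the 2 regions. It encodes the cytosolic thiolase that joins acetyl-CoA units into acetoacetyl-CoA (ENSMUSG00000023832, chr17:12942890-12960747, minus strand, mm10). In hippocampus it was at 23.2, 21.3, 21.2 and 21.6 CPM in the HDACi CFC mice, against 27.6, 30.3, 27.4 and 29.5 CPM in the vehicle CFC mice. After context the HDACi mice had 22.2, 23.6, 19.98 and 21.3 CPM, against 27.6, 29.6, 26.2 and 28.5 CPM in vehicle mice. Neither pair of hippocampus groups overlapped, and the drug groups were lower. In striatum it was at 41.05, 40.95, 37.6 and 43.2 CPM in the HDACi CFC mice, against 36.5, 33.1, 33.3 and 33.2 CPM in the vehicle CFC mice, again with no overlap but with the drug group higher. After context the striatum values were 33.6, 42.8, 37.5 and 41.5 CPM with HDACi, against 35.0, 35.5, 30.8 and 31.6 CPM with vehicle, and these groups overlapped. Log2 fold changes were -0.33 ± 0.065 (adjusted p = 0.00146) after CFC and -0.28 ± 0.065 (adjusted p = 0.00494) after context in hippocampus, and 0.34 ± 0.079 (adjusted p = 0.00453) and 0.34 ± 0.079 (adjusted p = 0.00457) in striatum. Within replicates 1 and 2 alone the hippocampus values of Acat2 were -0.30 (adjusted p = 0.102) and -0.23 (adjusted p = 0.202) and the striatum values 0.32 (adjusted p = 0.146) and 0.22 (adjusted p = 0.297). Within replicates 3 and 4 alone the hippocampus values were -0.35 (adjusted p = 0.0576) and -0.33 (adjusted p = 0.076), and both striatum calls remained. With library size alone the striatal values were 0.26 (adjusted p = 0.0238) and 0.23 (adjusted p = 0.0437).

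Of the other mevalonate enzymes, Idi1 alone was called, and in 1 comparison. This isomerase of isopentenyl diphosphate fell in hippocampus after CFC, to 22.9, 23.7, 28.6 and 23.7 CPM with HDACi, against 35.3, 28.7, 35.5 and 31.7 CPM with vehicle, with a log2 change of -0.34 ± 0.11 (adjusted p = 0.0354). Without the choroid plexus libraries (replicates 2 and 4) the Idi1 value was -0.27 (adjusted p = 0.221), and leaving out any of 6 libraries in turn also ended the call. Elsewhere its log2 fold change was -0.19, -0.16 and -0.16. Hmgcs1 was not called, with means of 231 ± 12.9 CPM with HDACi and 238 ± 11.2 CPM with vehicle in hippocampus after CFC (SD, n = 4 each) and a log2 fold change of 0.025 ± 0.089. The sign of so small a value depends on scaling: it was -0.039 with library size alone, the scale of the CPM means. In striatum its values were -0.024 ± 0.16 after CFC and -0.14 ± 0.16 after context. Within each striatal CFC group the library with few medium spiny neuron markers had the highest Hmgcs1, 219 CPM in HDACi replicate 2 and 229 CPM in vehicle replicate 3, and the same held for Sqle. The mevalonate kinases Mvk and Pmvk were not called, with log2 fold changes from -0.34 (Mvk, striatum context) to 0.083 (Pmvk, striatum CFC). Mvd, the decarboxylase, had negative values throughout, -0.64 ± 0.24, -0.41 ± 0.24, -0.47 ± 0.22 and -0.35 ± 0.22, and missed the threshold in each (lowest adjusted p 0.0739). Under the replicate block it was called in hippocampus after context, at -0.42 (adjusted p = 0.0246). The block also called Mvd after CFC in both regions, where the numbers were not taken to pair samples. Fdps, at about 1 CPM, was not called, with values from -0.72 to -0.16.

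In the step from squalene to lanosterol, Lss fell in all 4 comparisons, whereas Fdft1 and Sqle were not called in any. Lss encodes lanosterol synthase, which closes the sterol ring system (ENSMUSG00000033105, chr10:76531588-76557138, plus strand). In hippocampus it was at 22.1, 30.4, 23.3 and 25.3 CPM in the HDACi CFC mice, against 35.9, 35.8, 34.3 and 37.9 CPM in the vehicle CFC mice. After context the values were 24.9, 26.6, 21.3 and 24.4 CPM with HDACi and 33.05, 37.7, 31.4 and 36.4 CPM with vehicle. Every drug-treated mouse lay below every vehicle mouse in both pairs. In striatum Lss was at 25.1, 34.9, 23.6 and 29.2 CPM in the HDACi CFC mice, against 38.7, 40.3, 36.8 and 45.1 CPM in the vehicle CFC mice. The context mice had 25.4, 27.1, 23.9 and 25.1 CPM with HDACi and 33.7, 41.3, 35.3 and 41.1 CPM with vehicle, again without overlap. Its log2 fold changes were -0.45 ± 0.092 (adjusted p = 0.00206) and -0.43 ± 0.092 (adjusted p = 0.00278) in hippocampus, after CFC and after context, and -0.43 ± 0.10 (adjusted p = 0.00473) and -0.46 ± 0.10 (adjusted p = 0.00262) in striatum. Within replicates 1 and 2 alone they were -0.37, -0.37, -0.32 and -0.40 and none was called, and within replicates 3 and 4 alone -0.52, -0.49, -0.56 and -0.55 and all were called. Exons of several members lie opposite another gene, Lss over 381 bases, Hmgcs1 over 557, Idi1 over 323, Fdft1 over 774, Cyp51 over 166 and Scap over 985, and reads there could be split between the partners. Fdft1 had log2 fold changes from -0.16 to 0.049, and Sqle from -0.21 to -0.043.

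Beyond lanosterol, Hsd17b7 had the largest fall of all members in striatum. It encodes a ketosterol reductase that acts on demethylated sterols (ENSMUSG00000026675, chr1:169949535-169969241, minus strand), and its promoter carries 3 NF-Y boxes. In hippocampus it was at 16.6, 14.99, 17.3 and 15.99 CPM in the HDACi CFC mice, against 25.2, 22.96, 26.3 and 20.8 CPM in the vehicle CFC mice. After context the HDACi mice had 15.2, 14.7, 16.9 and 17.1 CPM, against 21.6, 22.7, 24.9 and 24.7 CPM in vehicle mice. The groups did not overlap in either pair. In striatum it was at 7.36, 10.8, 8.10 and 11.1 CPM in the HDACi CFC mice, against 15.7, 19.3, 21.6 and 18.4 CPM in the vehicle CFC mice. After context the values were 8.05, 7.35, 8.91 and 6.49 CPM with HDACi and 14.6, 15.4, 17.3 and 19.7 CPM with vehicle, and neither pair overlapped. The log2 fold changes were -0.49 ± 0.093 (adjusted p = 0.0012) and -0.47 ± 0.094 (adjusted p = 0.00161) in hippocampus, after CFC and after context, and -0.93 ± 0.14 (adjusted p = 0.000172) and -1.01 ± 0.14 (adjusted p = 7.81e-05) in striatum. Within replicates 3 and 4 alone the hippocampus values were -0.44 (adjusted p = 0.0672) and -0.46 (adjusted p = 0.0596), and both striatum calls remained.

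Cyp51 and Dhcr7 were called in 2 comparisons each. Cyp51, the lanosterol demethylase, was at 41.2, 43.1, 51.6 and 46.3 CPM in the HDACi CFC mice, against 58.6, 54.1, 60.5 and 59.9 CPM in the vehicle CFC mice, in hippocampus, with no overlap. After context the hippocampus values were 37.5, 48.5, 49.02 and 47.2 CPM with HDACi and 52.03, 51.9, 56.6 and 62.8 CPM with vehicle. In striatum it was at 28.01, 44.4, 34.2 and 36.4 CPM in the HDACi CFC mice, against 42.1, 39.2, 54.6 and 43.5 CPM in the vehicle CFC mice, with overlap. Context mice gave 31.2, 28.1, 34.1 and 32.1 CPM with HDACi and 43.4, 38.7, 51.2 and 50.01 CPM with vehicle, with no overlap. It was called in hippocampus after CFC (-0.29 ± 0.098, adjusted p = 0.044) and in striatum after context (-0.43 ± 0.13, adjusted p = 0.0212), and had -0.21 ± 0.098 and -0.25 ± 0.13 in the other 2. When the replicate block was fitted it was also called in hippocampus after context (-0.21, adjusted p = 0.0334), and without the libraries that stood apart the hippocampus CFC call was lost (-0.25, adjusted p = 0.205). That call was lost in 6 of 11 alternatives and without any of 6 libraries in turn, and the striatum context call in 1 of 11 and without any of 3 libraries. Dhcr7, the reductase of the sterol precursor of vitamin D, was at 24.7, 25.9, 23.4 and 24.8 CPM in the HDACi CFC mice, against 31.1, 32.1, 27.5 and 29.9 CPM in the vehicle CFC mice, in hippocampus. After context it was at 25.6, 25.2, 22.1 and 24.1 CPM with HDACi and 30.4, 29.3, 28.4 and 30.1 CPM with vehicle, and neither pair overlapped. In striatum the Dhcr7 values were 18.2, 27.2, 18.7 and 20.7 CPM with HDACi and 21.5, 23.7, 22.2 and 25.3 CPM with vehicle after CFC, with overlap. After context they were 20.5, 20.4, 19.1 and 18.01 CPM with HDACi and 24.1, 23.1, 22.4 and 20.9 CPM with vehicle, without overlap. It fell in hippocampus with a log2 change of -0.22 ± 0.063 (adjusted p = 0.0167) after CFC and -0.20 ± 0.063 (adjusted p = 0.0289) after context, and had -0.047 ± 0.095 and -0.10 ± 0.095 in striatum. Both hippocampus calls of Dhcr7 were lost without the libraries that stood apart, at -0.25 (adjusted p = 0.0887) and -0.21 (adjusted p = 0.0532). Neither fall was smaller than in the main fit. All libraries that stood apart were CFC ones, so the context comparison lost none of its own. The 2 Dhcr7 calls were lost in 5 and 6 of 11 alternatives, and in 3 and 4 of 8 fits that left out a single library.

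The remaining post-lanosterol enzymes gave 2 calls in all. Tm7sf2, a sterol reductase, fell in striatum after CFC with a log2 change of -0.34 ± 0.12 (adjusted p = 0.0469), to 9.78, 9.66, 8.35 and 10.7 CPM with HDACi, against 14.3, 13.1, 12.2 and 11.97 CPM with vehicle, and shares 532 exon bases with Vps51 on the same strand. Ebp, the sterol isomerase, fell in striatum after context with a log2 change of -0.29 ± 0.085 (adjusted p = 0.019), to 9.84, 9.15, 10.1 and 8.73 CPM with HDACi, against 13.5, 11.5, 13.5 and 11.6 CPM with vehicle. Each of these was called in 1 of 4 comparisons only, and leaving out single libraries ended the call of Tm7sf2 in 6 of 8 cases and that of Ebp in 3 of 8. Msmo1, a methylsterol oxidase, Nsdhl, a sterol dehydrogenase, and Sc5d were not called, with log2 fold changes between -0.091 (Sc5d, striatum context) and 0.18 (Msmo1, striatum context). Across the enzymes 6 fell and 0 rose in hippocampus after CFC, 4 fell and 0 rose after context, 3 fell and 1 rose in striatum after CFC, and 4 fell and 1 rose after context. Of all genes 13.4%, 13.2%, 14.6% and 14.5% fell and 7.42%, 6.55%, 9.57% and 10.3% rose in these comparisons. The absence of enzymes that rose in hippocampus depended on scaling, since with the GC content and length offsets Hmgcs1 and Sc5d were called higher in both hippocampus comparisons. The enzyme medians were -0.12, -0.12, -0.16 and -0.15 in these comparisons.

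Among the genes of SREBP control, Insig1 fell and Srebf1 rose, while Srebf2, Scap and Insig2 were not called. Insig1, itself a target of the SREBPs (ENSMUSG00000045294, chr5:28071363-28078662, plus strand), was at 30.3, 27.6, 30.5 and 29.4 CPM in the HDACi CFC mice, against 46.1, 53.1, 48.3 and 50.5 CPM in the vehicle CFC mice, in hippocampus. The context mice had 26.9, 26.4, 33.3 and 32.5 CPM with HDACi and 43.5, 38.1, 42.7 and 48.5 CPM with vehicle. In striatum it was at 23.7, 30.9, 25.2 and 29.7 CPM in the HDACi CFC mice, against 38.6, 48.8, 48.7 and 50.6 CPM in the vehicle CFC mice. After context the striatum values were 28.1, 23.3, 32.7 and 26.1 CPM with HDACi and 44.9, 37.5, 48.03 and 48.5 CPM with vehicle. In all 4 pairs every drug-treated mouse lay below every vehicle mouse. Log2 fold changes were -0.68 ± 0.094 (adjusted p = 6.41e-05) and -0.46 ± 0.094 (adjusted p = 0.00216) in hippocampus, after CFC and after context, and -0.69 ± 0.12 (adjusted p = 0.000393) and -0.59 ± 0.12 (adjusted p = 0.00138) in striatum. Both hippocampus calls were kept under each alternative tried. Within replicates 1 and 2 alone the striatum values were -0.60 (adjusted p = 0.0617) and -0.57 (adjusted p = 0.0694). Its paralog Insig2 was at 60.7, 59.6, 69.7 and 59.1 CPM in the HDACi CFC mice, against 58.05, 54.6, 66.9 and 60.2 CPM in the vehicle CFC mice, in hippocampus. In the context mice it was at 62.4, 61.5, 72.4 and 67.3 CPM with HDACi and 61.7, 59.4, 70.7 and 66.1 CPM with vehicle. The hippocampus groups overlapped. Striatum gave 51.95, 47.7, 50.9 and 46.2 CPM with HDACi and 50.5, 50.99, 58.1 and 50.8 CPM with vehicle after CFC. After context striatum gave 48.8, 48.7, 56.6 and 52.9 CPM with HDACi and 54.7, 51.5, 57.02 and 55.8 CPM with vehicle. The striatum groups overlapped too. The log2 fold changes of Insig2 were 0.12 and 0.11 in hippocampus and -0.011 and 0.032 in striatum, after CFC and after context.

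Srebf1 (ENSMUSG00000020538, chr11:60199089-60222581, minus strand) was at 40.5, 45.6, 24.7 and 38.02 CPM in the HDACi CFC mice, against 19.7, 28.6, 14.5 and 19.4 CPM in the vehicle CFC mice, in hippocampus. Context mice gave 41.1, 35.8, 20.97 and 26.5 CPM with HDACi and 26.6, 23.7, 14.6 and 15.1 CPM with vehicle. Both pairs overlapped, and replicates 1 and 2 exceeded replicates 3 and 4 within every group. In striatum the values were 49.6, 63.9, 43.4 and 45.4 CPM with HDACi and 36.9, 42.7, 17.4 and 31.5 CPM with vehicle after CFC, without overlap. After context they were 41.1, 47.9, 33.8 and 35.7 CPM with HDACi and 35.2, 31.5, 24.4 and 19.9 CPM with vehicle, with overlap. Log2 fold changes were 0.92 ± 0.25 (adjusted p = 0.0133) and 0.72 ± 0.25 (adjusted p = 0.052) in hippocampus, after CFC and after context, and 0.74 ± 0.22 (adjusted p = 0.0206) and 0.63 ± 0.22 (adjusted p = 0.046) in striatum. With the replicate block the hippocampus context value was 0.72 (adjusted p = 0.000205). Within replicates 1 and 2 alone the values were 0.92, 0.70, 0.59 and 0.53, and within replicates 3 and 4 alone 0.94, 0.76, 0.93 and 0.74. Without the libraries that stood apart the 2 CFC calls were lost, at 0.75 in hippocampus (adjusted p = 0.157) and 0.41 in striatum (adjusted p = 0.1001). The striatum context call was lost with library size alone (0.51, adjusted p = 0.112) and without any of 6 libraries in turn. Srebf1 exons also lie opposite Rai1 over 109 bases.

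Srebf2, the regulator with the broadest reach over the enzymes above, was at 137, 130.1, 99.2 and 121 CPM in the HDACi CFC mice, against 140.0, 147, 107 and 116 CPM in the vehicle CFC mice, in hippocampus. After context it was at 131, 129, 91.4 and 107 CPM with HDACi and 145, 133, 108 and 96.5 CPM with vehicle. Striatum gave 151, 160.2, 133 and 147 CPM with HDACi and 189, 154, 132 and 153 CPM with vehicle after CFC. The drug and vehicle groups overlapped in each case. After context striatum gave 132, 157, 126 and 129.7 CPM with HDACi and 177, 166, 128 and 138 CPM with vehicle. Its log2 fold changes were 0.0020 ± 0.14, 0.0076 ± 0.14, -0.0048 ± 0.11 and -0.045 ± 0.11. Scap, the escort, was at 63.9, 65.7, 44.4 and 57.7 CPM in the HDACi CFC mice, against 64.2, 74.7, 48.4 and 56.01 CPM in the vehicle CFC mice, in hippocampus. The context mice had 65.5, 62.8, 42.01 and 49.4 CPM with HDACi and 77.9, 70.7, 51.04 and 47.6 CPM with vehicle. In striatum the Scap values were 66.2, 69.1, 51.03 and 57.9 CPM with HDACi and 88.2, 77.1, 52.98 and 68.7 CPM with vehicle after CFC. The spread within each group again followed the replicate numbers, and the groups overlapped. After context striatum had 61.6, 67.8, 52.6 and 51.3 CPM with HDACi and 81.5, 77.2, 56.3 and 55.9 CPM with vehicle. The log2 fold changes of Scap lay between -0.15 and -0.0052.

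**Figure D3:**
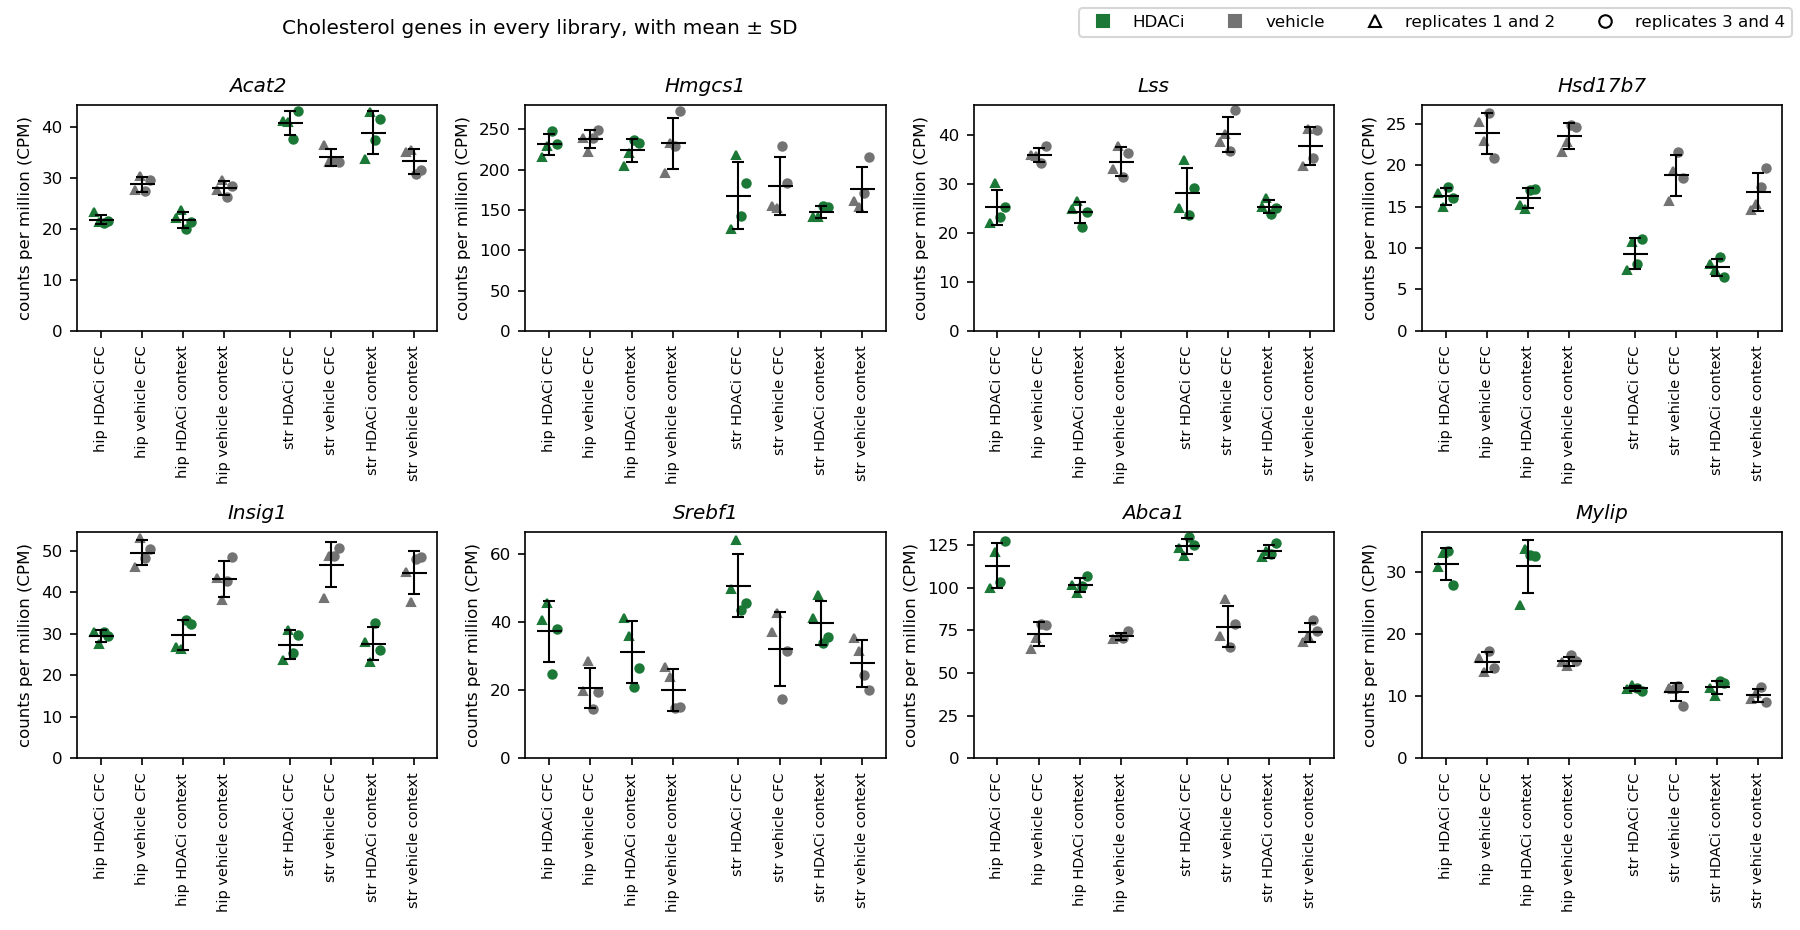
CPM of 8 members in every library, by group, with mean ± SD over 4 libraries, HDACi in green and vehicle in grey. Triangles are replicates 1 and 2 and circles replicates 3 and 4. Insig1, Lss, Hsd17b7 and Abca1 show no overlap between drug and vehicle in any pair, Mylip separates in hippocampus and not in striatum, and in Srebf1 the triangles lie above the circles within every group.

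Among the genes of efflux and turnover, Abca1 rose in both regions and Mylip in hippocampus. Abca1 encodes the membrane exporter that loads cholesterol onto lipid-poor apolipoproteins (ENSMUSG00000015243, chr4:53030787-53159895, minus strand). In hippocampus it was at 100.1, 121, 104 and 128 CPM in the HDACi CFC mice, against 63.9, 70.7, 78.5 and 78.2 CPM in the vehicle CFC mice. Context mice gave 102, 97.2, 101 and 107 CPM with HDACi and 69.7, 70.96, 70.5 and 74.7 CPM with vehicle. Drug and vehicle mice did not overlap in either pair. In striatum Abca1 was at 124, 119, 129.6 and 125 CPM in the HDACi CFC mice, against 71.5, 93.4, 65.2 and 78.6 CPM in the vehicle CFC mice. After context the values were 118, 122, 119.7 and 126 CPM with HDACi and 68.2, 71.5, 81.02 and 74.7 CPM with vehicle, again without overlap. Log2 fold changes were 0.70 ± 0.080 (adjusted p = 1.34e-05) and 0.59 ± 0.080 (adjusted p = 5.72e-05) in hippocampus, after CFC and after context, and 0.78 ± 0.090 (adjusted p = 1.06e-05) and 0.83 ± 0.090 (adjusted p = 5.43e-06) in striatum, and all 4 calls were kept under each alternative tried. Without the choroid plexus libraries the hippocampus CFC value was 0.56. The astrocyte marker list had 0, 1, 2 and 4 of 10 genes higher and 0 lower in the same comparisons, with medians of 0.12, 0.20, 0.24 and 0.23, where 7.42%, 6.55%, 9.57% and 10.3% of all genes rose. Its summed level in hippocampus after CFC was 5813 to 6897 CPM with HDACi and 5999 to 6551 CPM with vehicle, and in striatum after CFC 5494 to 5672 CPM with HDACi and 4985 to 5483 CPM with vehicle. After context it was 6472 to 6807 CPM with HDACi and 5740 to 6539 CPM with vehicle in hippocampus, and 5023 to 5863 CPM with HDACi and 4771 to 5328 CPM with vehicle in striatum. None of its 10 markers was at 0 in any library, and its part in the rise of Abca1 was not tested.

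Mylip encodes a ubiquitin ligase, known as IDOL, that marks lipoprotein receptors for degradation (ENSMUSG00000038175, chr13:45389742-45412022, plus strand). In hippocampus it was at 30.7, 33.1, 33.3 and 27.8 CPM in the HDACi CFC mice, against 16.2, 13.9, 17.3 and 14.4 CPM in the vehicle CFC mice. After context it was at 24.6, 33.7, 32.8 and 32.6 CPM with HDACi and 15.4, 14.8, 16.6 and 15.7 CPM with vehicle. The lowest drug-treated mouse exceeded the highest vehicle mouse in both pairs. In striatum the values were 11.1, 11.8, 11.2 and 10.7 CPM with HDACi and 11.2, 11.2, 11.6 and 8.43 CPM with vehicle after CFC. After context they were 11.3, 9.95, 12.4 and 12.02 CPM with HDACi and 9.56, 10.5, 11.4 and 8.98 CPM with vehicle, and both striatal pairs overlapped. The log2 fold changes were 1.08 ± 0.11 (adjusted p = 3.39e-06) and 1.06 ± 0.11 (adjusted p = 3.96e-06) in hippocampus, after CFC and after context, and 0.16 ± 0.11 (adjusted p = 0.32) and 0.29 ± 0.11 (adjusted p = 0.0751) in striatum. Both hippocampus calls were kept under each alternative tried. Under the replicate block Mylip was also called in striatum after context (0.29, adjusted p = 0.0447).

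The other transport and turnover genes gave 1 call. Stard4, a soluble sterol carrier, fell in striatum after context, to 16.01, 16.2, 16.99 and 18.6 CPM with HDACi, against 24.02, 21.7, 22.8 and 31.7 CPM with vehicle, with a log2 change of -0.45 ± 0.13 (adjusted p = 0.017). Its values were -0.27, -0.12 and -0.28 elsewhere, and with the replicate block it was also called in hippocampus after CFC. Leaving out replicate 4 of striatum vehicle context ended the call. Abcg1, a partner of Abca1 in export, had positive values of 0.22 ± 0.14 and 0.11 ± 0.14 in hippocampus and 0.32 ± 0.12 (adjusted p = 0.0765) and 0.34 ± 0.12 (adjusted p = 0.054) in striatum, and was called in none. When the replicate block was fitted the striatum context value was 0.35 (adjusted p = 0.00651). Abcg1 was also called with the block after CFC in both regions, where the numbers were not taken to pair samples. Apoe was not called, with 0.26 ± 0.25, 0.16 ± 0.25, 0.19 ± 0.20 and 0.16 ± 0.20, and its libraries spread widely, at 568, 563, 391 and 597 CPM with HDACi and 459, 627, 333 and 428 CPM with vehicle in hippocampus after CFC. The log2 fold change of Cyp46a1 lay between -0.021 and 0.16, and that of Soat1, which esterifies cholesterol for storage, between -0.19 and 0.15, with no call.

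Neither liver X receptor was called without a replicate block. Nr1h2 was at 12.9, 11.7, 8.54 and 12.2 CPM in the HDACi CFC mice, against 13.2, 17.96, 9.56 and 10.7 CPM in the vehicle CFC mice, in hippocampus. The context mice had 12.8, 11.98, 7.29 and 9.76 CPM with HDACi and 16.6, 13.96, 9.71 and 8.92 CPM with vehicle. In striatum it was at 15.2, 15.7, 11.5 and 11.9 CPM in the HDACi CFC mice, against 25.8, 21.4, 13.8 and 18.1 CPM in the vehicle CFC mice. The groups overlapped, and in 7 of 8 groups replicates 1 and 2 exceeded replicates 3 and 4. After context striatum had 12.2, 14.4, 9.69 and 10.1 CPM with HDACi and 24.9, 17.7, 14.5 and 13.6 CPM with vehicle. Log2 fold changes of Nr1h2 were -0.12 ± 0.22 and -0.16 ± 0.22 in hippocampus and -0.46 ± 0.20 (adjusted p = 0.107) and -0.50 ± 0.20 (adjusted p = 0.0826) in striatum. With the replicate block the striatum context value was -0.47 (adjusted p = 0.00458). The block also called Nr1h2 in striatum after CFC, where the numbers were not taken to pair samples. Nr1h3 was at 2.63, 2.13, 1.87 and 2.86 CPM in the HDACi CFC mice, against 2.63, 2.84, 2.12 and 2.29 CPM in the vehicle CFC mice, in hippocampus. Context mice gave 3.38, 2.12, 1.80 and 2.06 CPM with HDACi and 2.78, 2.04, 2.21 and 1.57 CPM with vehicle. In striatum it was at 2.21, 1.69, 1.87 and 2.08 CPM in the HDACi CFC mice, against 2.94, 2.37, 1.67 and 2.66 CPM in the vehicle CFC mice. These low levels overlapped throughout. After context striatum had 1.95, 2.53, 1.64 and 1.72 CPM with HDACi and 2.77, 2.71, 2.18 and 2.17 CPM with vehicle, and the log2 fold changes of Nr1h3 lay between -0.22 and 0.20.

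The drug effect itself differed between regions for 2 members. After CFC 51 of 19198 genes (0.266%) had a called difference between the hippocampal and the striatal drug effect, and after context 119 (0.620%). Mylip and Acat2 were among them both times. The difference, hippocampus minus striatum on the log2 scale, was 0.91 ± 0.15 (adjusted p = 0.00617) after CFC and 0.76 ± 0.15 (adjusted p = 0.0124) after context for Mylip. For Acat2 it was -0.67 ± 0.10 (adjusted p = 0.00166) after CFC and -0.64 ± 0.10 (adjusted p = 0.00152) after context. Within replicates 1 and 2 alone the Mylip differences were 1.03 and 0.82 and those of Acat2 -0.64 and -0.48, and within replicates 3 and 4 alone 0.85 and 0.80, and -0.66 and -0.71, with none called in either set. Without the libraries that stood apart the Mylip difference after CFC was 1.02 (adjusted p = 0.0162) and that of Acat2 -0.54 (adjusted p = 0.0913). With only the groups compared in the fit, the Mylip difference after CFC was 0.90 (adjusted p = 0.0681). For Hsd17b7 the differences were 0.44 ± 0.17 (adjusted p = 0.44) and 0.52 ± 0.17 (adjusted p = 0.243), which were not called. For Insig1 (0.00083 ± 0.15 and 0.11 ± 0.15), Lss (-0.020 ± 0.14 and 0.016 ± 0.14) and Abca1 (-0.080 ± 0.12 and -0.26 ± 0.12) no difference between the regions passed the test.

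**Figure D4:**
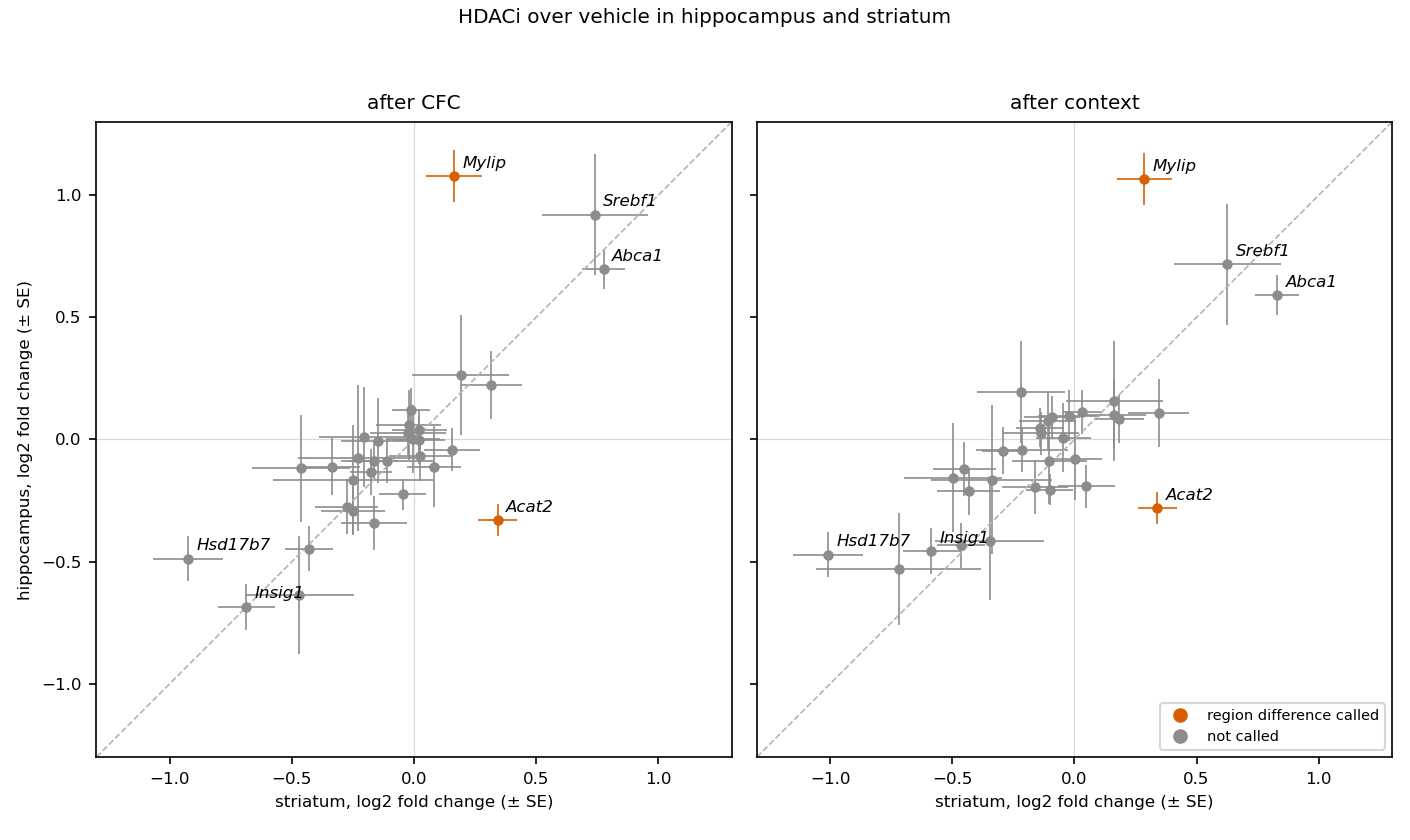
Log2 fold change of HDACi over vehicle (± SE) in hippocampus against that in striatum for the 32 members, after CFC and after context, with the line of equal effect dashed. Orange points have a called difference between the regions: Mylip lies above the line and Acat2 below it in both panels. Insig1, Abca1 and Srebf1 lie near the line.

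Conditioning changed none of the members detectably. In each of the 4 comparisons of CFC with context, 0 of 32 members and 0 genes in all (0.00%) were called, and 0 members had an unadjusted p under 0.05. Among all genes, 188 had an unadjusted p under 0.05 in hippocampus under vehicle, 775 in hippocampus under HDACi, 216 in striatum under vehicle and 988 in striatum under HDACi. If nothing differed, a share of 0.05 of the 18261 hippocampus and 18256 striatum genes tested would be due. The counts under vehicle were far below that share. The test may therefore have been cautious there, and why the counts fell short was not tested. The lack of calls does not show that conditioning had no effect. The DESeq2 Wald test called 0 members and 1, 0, 0 and 2 genes in these comparisons. The log2 fold changes of members, CFC over context, ran from -0.13 to 0.25 in hippocampus under vehicle, from -0.18 to 0.24 in hippocampus under HDACi, from -0.09 to 0.19 in striatum under vehicle and from -0.18 to 0.51 in striatum under HDACi. Insig1 had 0.19 ± 0.093 in hippocampus under vehicle and -0.040 ± 0.094 under HDACi. No member had a called difference between the drug effect after CFC and that after context: both interactions called 0 of 32 members and 0 genes (0.00%), with 390 genes in hippocampus and 380 in striatum at an unadjusted p under 0.05 and 0 members among them. The DESeq2 Wald test called 1 gene and 0 genes for these, and 0 members. The interaction counts at an unadjusted p under 0.05 were also below the share due if nothing differed. The hippocampal interaction was -0.23 ± 0.13 for Insig1, 0.11 ± 0.11 for Abca1 and 0.015 ± 0.15 for Mylip.

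Genes around the pathway, none of them a member, were counted in 5 further lists over the same drug comparisons, in the order hippocampus after CFC and after context, then striatum after CFC and after context. Their counts stand against 7.42%, 6.55%, 9.57% and 10.3% of all genes that rose and 13.4%, 13.2%, 14.6% and 14.5% that fell. Of 12 partners of SREBP processing and sterol sensing, 4 fell and 1 rose in each hippocampus comparison, 2 fell and 2 rose in striatum after CFC and 2 fell and 1 rose after context. Osbp, an oxysterol-binding protein, fell in hippocampus with a log2 change of -0.39 ± 0.063 (adjusted p = 0.000321) after CFC and -0.39 ± 0.064 (adjusted p = 0.000308) after context. Erlin1, which restrains SREBP activation, fell there with a log2 change of -0.64 ± 0.12 (adjusted p = 0.00128) and -0.69 ± 0.12 (adjusted p = 0.000745). The ubiquitin ligase gene Rnf139 fell with a log2 change of -0.55 ± 0.10 (adjusted p = 0.000882) in hippocampus after CFC, and with a log2 change of -0.59 ± 0.099 (adjusted p = 0.000351) and -0.59 ± 0.099 (adjusted p = 0.000309) in striatum. Gramd1b, which moves plasma membrane cholesterol to the endoplasmic reticulum, rose in striatum by 0.44 ± 0.092 (adjusted p = 0.00206) and 0.36 ± 0.092 (adjusted p = 0.0081). Of 10 other isoprenoid and late sterol genes 9 were tested, and 1, 1, 2 and 2 fell and 0 rose. Lbr, a nuclear envelope protein with sterol reductase activity, fell with a log2 change of -0.65 ± 0.083 (adjusted p = 3.48e-05) and -0.50 ± 0.084 (adjusted p = 0.000391) in hippocampus, and with a log2 change of -0.32 ± 0.11 (adjusted p = 0.0467) and -0.59 ± 0.11 (adjusted p = 0.000807) in striatum. Ggps1, the geranylgeranyl diphosphate synthase, fell in striatum with a log2 change of -0.31 ± 0.086 (adjusted p = 0.0152) and -0.31 ± 0.086 (adjusted p = 0.0135). Of 12 SREBP targets of fatty acid synthesis, 2, 3, 5 and 2 rose and 0 fell in the same order, with medians of 0.17, 0.12, 0.18 and 0.09. The stearoyl desaturase Scd2 rose by 0.24 ± 0.056 (adjusted p = 0.0051) and 0.26 ± 0.056 (adjusted p = 0.00294) in hippocampus, and by 0.33 ± 0.081 (adjusted p = 0.00725) and 0.23 ± 0.081 (adjusted p = 0.0461) in striatum. Fads1, a fatty acid desaturase, rose in hippocampus by 0.17 ± 0.052 (adjusted p = 0.0277) and 0.19 ± 0.052 (adjusted p = 0.0136), and Fads2 in striatum by 0.35 ± 0.075 (adjusted p = 0.00261) and 0.35 ± 0.075 (adjusted p = 0.00245). Scd1 rose in hippocampus after context by 0.19 ± 0.064 (adjusted p = 0.0457) and Acaca, the acetyl-CoA carboxylase, in striatum after CFC by 0.23 ± 0.067 (adjusted p = 0.0176). Of 12 genes of sterol uptake and intracellular transport, 0, 0, 1 and 3 rose and 0 fell. Lima1, an actin-binding protein, rose in striatum by 0.32 ± 0.11 (adjusted p = 0.042) and 0.36 ± 0.11 (adjusted p = 0.0225). After context the late endosomal carrier Stard3 rose there by 0.34 ± 0.098 (adjusted p = 0.017) and the lipoprotein receptor Scarb1 by 0.41 ± 0.14 (adjusted p = 0.0437). Of 19 genes of efflux, liver X receptor partners and oxysterol enzymes 18 were tested, and 1, 1, 0 and 1 rose and 0 fell. The called gene was Apoc1, an apolipoprotein, each time. In hippocampus it was at 0.753, 1.62, 0.603 and 1.37 CPM with HDACi and 0.303, 0.376, 0.303 and 0.273 CPM with vehicle after CFC. After context it was at 1.15, 1.01, 0.885 and 0.732 CPM with HDACi and 0.227, 0.481, 0.447 and 0.328 CPM with vehicle in hippocampus, and at 1.09, 0.977, 0.805 and 0.922 CPM with HDACi and 0.277, 0.287, 0.449 and 0.208 CPM with vehicle in striatum. These 3 pairs did not overlap, and the hippocampus CFC values were highest in replicates 2 and 4, the choroid plexus libraries. In striatum after CFC Apoc1 was at 0.526, 1.06, 0.648 and 0.641 CPM with HDACi and 0.384, 0.802, 0.244 and 0.394 CPM with vehicle, with overlap and no call (0.74, adjusted p = 0.101). Log2 fold changes in the 3 called comparisons were 1.84 ± 0.31 (adjusted p = 0.000458), 1.44 ± 0.32 (adjusted p = 0.00363) and 1.74 ± 0.32 (adjusted p = 0.000689).

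Marker genes of several cell types were called in the same comparisons. Of 10 oligodendrocyte precursor markers, 7, 7, 7 and 5 rose and 0 fell with the drug, in the order hippocampus after CFC, hippocampus after context, striatum after CFC and striatum after context, where 7.42%, 6.55%, 9.57% and 10.3% of all genes rose. Their sum after CFC was 467.6 to 524.6 CPM with HDACi and 383.9 to 390.1 CPM with vehicle in hippocampus, and 602.1 to 695.1 CPM with HDACi and 405.3 to 569.0 CPM with vehicle in striatum. After context it was 450.5 to 558.5 CPM with HDACi and 349.9 to 420.9 CPM with vehicle in hippocampus, and 547.0 to 640.1 CPM with HDACi and 440.9 to 560.6 CPM with vehicle in striatum. Of 10 markers of mature oligodendrocytes, which are rich in sterol enzymes, 1, 1, 2 and 1 rose and 0 fell. None of these markers was at 0 in any library. Of 10 markers of endothelial cells and pericytes 4, 3, 3 and 5 rose, and of 10 microglia markers 0, 0, 1 and 0, with 0 falling in either list. Neuron markers were called as well: of 10 medium spiny neuron markers 1, 1, 0 and 2 rose, and of the hippocampal excitatory neuron markers 2 of 10, 2 of 10, 1 of 9 tested and 0 of 9 tested, with 0 falling. The part of these cell types in the results above was not tested. All 10 choroid plexus markers rose in hippocampus after CFC, with a median of 5.14, and 0 of 10 after context. Among the members, leaving out the 2 libraries that carried them reduced the hippocampus CFC calls to 6, of which 2 rose (Abca1 and Mylip) and 4 fell (Acat2, Lss, Hsd17b7 and Insig1).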

How the data were processed

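RNA of 32 libraries, 4 mice in each of 8 groups, was measured with stranded polyA libraries and paired reads of 100 bases. The authors deposited whole-number read counts per gene, in 1 table that gives Ensembl identifiers, with no normalization. Per the submitters' processing notes, mm10, STAR 2.6, bcl2fastq 2.20.0 and DESeq2 were used. The sources used here give neither the counting tool nor whether it used strand. Of 54146 identifiers, 54079 matched GENCODE M21, and the other 67 held at most 0.0264% of a library. Totals were 26026024 to 36670767 counts in hippocampus and 27418127 to 33635025 in striatum. No 2 libraries of a group were copies (chi-square per degree of freedom 5.77 to 67.7 over 48 pairs).

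Counts were tested with edgeR 4.0.16 in R 4.3.3 (filterByExpr, TMM, quasi-likelihood F test, Benjamini-Hochberg adjustment over all genes tested, threshold 0.05), with 1 fit per region of 4 groups and 1 joint fit of all 32 libraries for comparisons between regions. If a number marks the same mouse in both regions, the joint fit treats dependent libraries as independent. The labels call the libraries biological replicates. RPKM used exon lengths. The tests were checked on simulated counts. Alternatives were DESeq2 1.42.0 (size factors and Wald test), library size alone, GC content and length offsets, no filter, a replicate block, a term for or split by replicates 1 and 2 against 3 and 4, only the groups compared, and leaving out libraries.

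The numbers were taken to pair samples where every same-numbered pair's deviations correlated over 0.1. They did in hippocampus after context (0.464 to 0.666), in striatum after context (0.107 to 0.537), in hippocampus CFC over context under vehicle (0.122 to 0.496) and under HDACi (0.156 to 0.663), and between regions (0.351 to 0.709). This pairing comes from the data, not the labels. The best match was the own number in 2 of 4 pairs in both context drug comparisons and in 3 of 4 between regions. For hippocampus CFC over context it was so in 1 of 4, under vehicle and under HDACi. Whether the difference between replicates 1 and 2 and replicates 3 and 4 made these correlations was not tested.

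Members and lists were chosen with earlier results of these data known. Values in every library are given for members called in at least 2 of 4 drug comparisons and for SREBP and LXR regulators, and from each partner list the 3 called genes with the smallest adjusted p are named per comparison, apart from a gene that is not reported here.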

Additional observations from a re-analysis of the deposited data

Results flagged for a closer look

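A single library lay far from the other 3 of its group, by Dixon's test at its 95% critical value, for 16 of 256 member and group combinations, where chance alone gives about 1 in 20. In hippocampus HDACi CFC, replicate 3 had 3.90 CPM of Mvk (others 6.95 to 7.46), 28.6 CPM of Idi1 (22.9 to 23.7), 1.11 CPM of Fdps (0.822 to 0.869), 69.7 CPM of Insig2 (59.1 to 60.7), 70.4 CPM of Cyp46a1 (88.1 to 88.9) and 391.2 CPM of Apoe (563.2 to 596.9). In the same group, replicate 1 had 23.2 CPM of Acat2 (21.2 to 21.6) and 34.7 CPM of Sqle (40.0 to 40.5). In hippocampus vehicle CFC, replicate 2 had 1.095 CPM of Fdps (1.059 to 1.064), a gap that is wide only against the small spread of that group. In hippocampus HDACi context, replicate 1 had the lowest level of Cyp51, 37.5 CPM (47.2 to 49.0), and of Mylip, 24.6 CPM (32.6 to 33.7). In striatum HDACi CFC, replicate 4 had 1.25 CPM of Fdps (0.529 to 0.631). In striatum vehicle CFC, replicate 1 had 36.5 CPM of Acat2 (33.1 to 33.3) and 38.6 CPM of Insig1 (48.7 to 50.6), replicate 3 had 58.1 CPM of Insig2 (50.5 to 51.0) and replicate 4 had 8.43 CPM of Mylip (11.2 to 11.6).

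The drug effect differed between regions, by the test of the difference itself, for Mylip (log2 difference 0.91 after CFC and 0.76 after context) and for Acat2 (-0.67 after CFC and -0.64 after context).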

How the results depend on the processing

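No result changed its direction past the threshold under any alternative run. Both hippocampus calls of Mylip and Insig1, all 4 of Abca1 and both striatum calls of Hsd17b7 were kept under all 11 alternatives and each library left out. Counts of members called moved by over 1.5 times in the cases below, and the cause was not tested in any. Where libraries were left out, having fewer libraries and lacking those particular ones cannot be told apart. GC content and length offsets gave 15 in hippocampus after context (8 higher, 7 lower, against 7 in all). How many of all genes were called with the offsets is not given here, so this rise is not read as particular to the members. Replicates 1 and 2 alone gave 6 in hippocampus after CFC, 3 in striatum after CFC, 3 in striatum after context, and 0 for both differences between regions. Replicates 3 and 4 alone gave 5 in hippocampus after CFC, 4 in hippocampus after context, 9 between regions under vehicle and context, and 0 for both differences of the drug effect. Fitting only the groups compared gave 1 (Acat2) for the difference after CFC. Without the libraries that stood apart there were 6 in hippocampus after CFC and 1 (Mylip) for the difference after CFC. Leaving out single libraries gave 7 to 10 members in hippocampus after CFC, 6 to 8 after context, 5 to 8 in striatum after CFC, 6 to 10 after context, 10 to 16 between regions, 2 for the difference after CFC and 2 to 3 after context. All genes called ranged from 2969 to 3769, 2899 to 3507, 3646 to 4707 and 3714 to 4040 in the drug comparisons, in that order. They ranged from 7779 to 8442 between regions, 31 to 169 for the difference after CFC and 76 to 162 after context. How many of all genes were called in either replicate split is not given here.

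With the replicate block, 13 members were called in hippocampus after CFC (adding Abcg1, Mvd and Stard4), 10 after context, 10 in striatum after CFC (adding Abcg1, Mvd and Nr1h2), 12 after context, 18 between regions, 2 for each difference of the drug effect, and 0 for conditioning and its interactions. The share of all genes called with the block is not given here, so these counts show nothing particular to the members. In the 2 drug comparisons after CFC not every same-numbered pair correlated over 0.1. The labels give only a number in every comparison, and over all comparisons 16 of 36 pairs correlated best with their own number.

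Low counts limit Fdps most, at about 1 CPM, and whether its overlap with Gm43738 lowered them was not tested. With 4 mice a group, small changes of members can be missed.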
